A study of Bos taurus with 7 samples.

Results

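A set of 10 genes that hold the mammalian oocyte in meiotic arrest, or release it, was followed in whole bovine follicles at the secondary (SF) and the primary (PF) stage. The genes were taken from a fixed list by name, with no cut on their values. The list was chosen with earlier results of these data known. The genes are 10 of the 23704 to which transcripts could be matched. They cover the ligand and receptor that supply cyclic GMP (*NPPC*, *NPR2*), the phosphodiesterases that break cyclic nucleotides down (*PDE3A*, *PDE5A*), the receptor and cyclases that supply cyclic AMP (*GPR3*, *ADCY3*, *ADCY9*) and the enzymes that set the phosphorylation of the cell cycle kinase CDK1 (*CDC25B*, *WEE2*, *PKMYT1*). A total of 24 transcripts carried them, 1 to 4 per gene.

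The SF group held 3 libraries and the PF group 4. In SF several layers of granulosa cells surround the oocyte, and in PF a single layer of cuboidal cells does. All libraries came from untreated follicles of young Holstein Friesian dairy cows, isolated mechanically from ovarian cortex, held briefly in medium with insulin and follicle-stimulating hormone and then lysed, with no genetic change and no culture beyond that recovery. According to the study, whole follicles from many animals had been pooled by stage, with the animals of each library not given in the sources used here. The RNA of oocytes and granulosa cells was read together. In such pools fewer cells of a type and less RNA per cell cannot be told apart.

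In the oocyte, cyclic AMP made by adenylyl cyclase keeps protein kinase A active, and protein kinase A in turn favours WEE kinases over CDC25 phosphatase, so that CDK1 stays phosphorylated and inactive. In the mouse, the natriuretic peptide CNP (gene *NPPC*), made by granulosa cells, acts on its receptor *NPR2* in the same cells. The cyclic GMP that this receptor makes passes through gap junctions into the oocyte, where it inhibits PDE3A, the enzyme that would destroy cyclic AMP. Preantral oocytes such as those studied here are still growing and have not yet gained the ability to resume meiosis.

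The libraries held 18788105 to 23764615 estimated counts, and between 12188 and 13034 genes had at least 1 TPM (an abundance corrected for transcript length, with the same sum in every library). PF replicate 4 stood apart. Its stromal fibroblast markers summed to 6210 TPM, against 241 to 550 TPM in SF and 429 to 634 TPM in the other PF libraries, and its smooth muscle and pericyte markers to 1050 TPM, against 225 to 264 and 72.6 to 160 TPM. As in the study, it was left out of the tests, and its values are given beside them. Markers of oocytes and of granulosa cells were found in every library. The 22 oocyte markers summed to 1840, 1490 and 252 TPM in SF replicates 1 to 3, 2580 to 5460 TPM in PF replicates 1 to 3 and 504 TPM in PF replicate 4. The lowest oocyte sum was thus that of SF replicate 3, which stayed in the tests. Among these markers 1, *OOSP2*, was at 0 in PF replicate 4 alone. The 20 granulosa markers summed to 7420 to 7890 TPM in SF, 2210 to 3280 TPM in PF replicates 1 to 3 and 3080 TPM in PF replicate 4. Of these, *IHH* was at 0 in all 4 PF libraries, *NR5A2* in SF replicate 1 and PF replicates 1 to 3, and *INHBB* in SF replicate 2 and PF replicate 3. *FOXL2*, which defines granulosa cells, was found in every library. The number in the library names is below 40 in SF replicate 1 and PF replicates 1 and 2 and above 40 in the other 4. The labels do not say what it stands for.

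A gene was counted as present in a group when it reached 1 TPM in each library. By this measure *NPR2*, *ADCY9*, *CDC25B* and *PKMYT1* were present in SF, and *NPR2*, *PDE3A*, *ADCY9* and *CDC25B* in PF replicates 1 to 3. No gene of the set was at or under 3 counts in all libraries of a group. DESeq2 called 3 of the 10 genes at an adjusted p below 0.05, where it called 19.1% of the 15056 genes tested. *ADCY9* was higher in SF, as were 8.14% of all genes, and *PDE3A* and *CDC25B* were lower in SF, as were 11.0%. The edgeR quasi-likelihood test called none of them and 0 of 14293 genes in all, with 3844 genes at an unadjusted p below 0.05. Levels below are TPM, with means ± SD over 3 libraries per group, and differences are DESeq2 log2 fold changes of SF over PF ± SE with PF replicate 4 left out.

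By mean TPM in SF the order was *ADCY9* (20.9), *NPR2* (16.4), *NPPC* (9.72), *CDC25B* (4.79), *PKMYT1* (3.24), *GPR3* (2.53), *PDE5A* (1.96), *WEE2* (1.60), *ADCY3* (1.11) and *PDE3A* (0.942). Of the neighbours in this order, *ADCY9* and *NPR2* alone did not overlap across the SF libraries. In PF replicates 1 to 3 the order was *CDC25B* (23.3), *NPR2* (14.0), *PKMYT1* (7.97), *ADCY9* (7.39), *NPPC* (4.93), *PDE3A* (4.54), *PDE5A* (4.08), *WEE2* (0.853), *ADCY3* (0.834) and *GPR3* (0.748), and all neighbours overlapped. *ADCY9* stood at the percentile 70.0 of the genes above 0 in SF and at 49.3 in PF, and *CDC25B* at 46.3 in SF and 69.3 in PF.

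**Figure D1:**
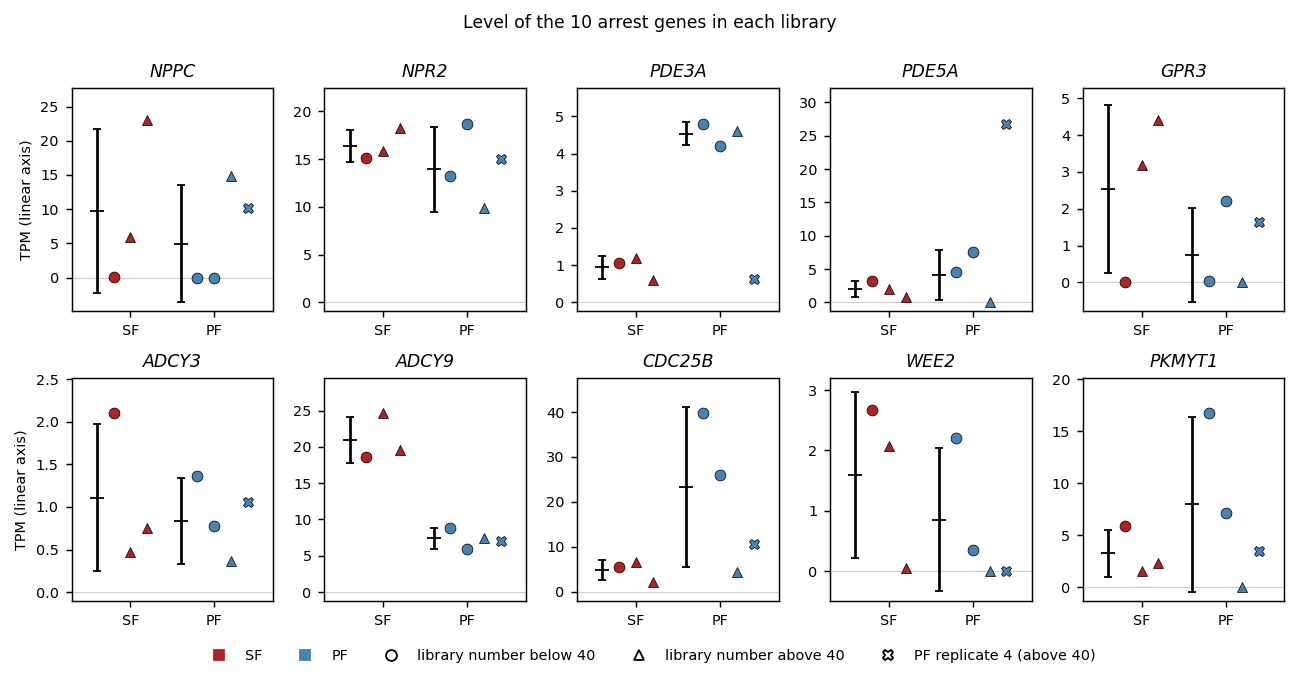
TPM (linear axis) of each gene in the 3 SF libraries (red, left) and the 4 PF libraries (blue, right), with the symbol showing the library number. The black bar gives the mean ± SD of 3 libraries, without PF replicate 4 (cross). *ADCY9* lay between 18.6 and 24.6 TPM in SF, above every PF library, and *PDE3A* between 0.591 and 1.18 TPM in SF, below PF replicates 1 to 3.

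The ligand *NPPC* split the libraries by their number and not by stage. It had 0.0685, 5.97 and 23.1 TPM in SF replicates 1 to 3, and 0, 0, 14.8 and 10.2 TPM in PF replicates 1 to 4. The 3 libraries numbered below 40 had 1, 0 and 0 counts and the 4 numbered above 40 had 73 to 287, so SF and PF overlapped from end to end. The PF libraries at 0 allow up to 3 counts, which would be 0.307 TPM in PF replicate 1 and 0.309 TPM in PF replicate 2. The mean was 9.72 ± 12.0 TPM in SF and 4.93 ± 8.54 TPM in PF (log2 fold change 1.27 ± 2.36 with a DESeq2 adjusted p of 0.763), and the 95% interval of the difference ran from -3.36 to 5.90. The result rested on single libraries. DESeq2 called *NPPC* higher in SF without PF replicate 3 (adjusted p = 0.00122), the only PF library in the test with counts, and the difference turned to -0.62 without SF replicate 3. The genes most like *NPPC* over the 7 libraries, by the root mean square difference of centred log2(TPM + 1), were *GADD45A*, a gene induced by stress and DNA damage, *LOC112443331* and *TUFT1* (differences 0.302, 0.321 and 0.328). *GADD45A* had 68.3, 844 and 2300 TPM in SF and 96.1, 99.5, 1090 and 859 TPM in PF replicates 1 to 4, the same split by library number. The part of the library number in this pattern was not tested.

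Its receptor *NPR2*, a guanylyl cyclase that makes cyclic GMP when CNP binds, varied least among the libraries. It had 15.1, 15.8 and 18.3 TPM in SF and 13.2, 18.7, 9.90 and 15.0 TPM in PF replicates 1 to 4. All 7 libraries lay within 9.90 to 18.7 TPM and the groups overlapped. The difference was 0.35 ± 0.35 (DESeq2 adjusted p = 0.515), with a 95% interval from -0.32 to 1.03. *NPR2* held 78.8% to 90.6% of the summed TPM of the 3 natriuretic peptide receptors in SF and 78.5% to 99.8% in PF replicates 1 to 3. The genes closest to its pattern were *GALC*, *ZNF805* and *ZFYVE27* (0.114, 0.125 and 0.127).

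Among the other natriuretic peptides, receptors and guanylyl cyclases, 4 of 7 were tested and none passed. Their median log2 fold change was 0.02, as was that of all genes tested. *NPPA* was at 0 in every library. For cyclic GMP precursors, 2 of 3 synthesis genes passed in opposite directions, where 19.1% of all genes tested passed in either direction. *IMPDH1*, which makes the guanine nucleotide precursor xanthosine monophosphate, rose in SF (19.7 ± 6.39 TPM in SF and 7.76 ± 3.30 TPM in PF, log2 fold change 1.49 ± 0.45, DESeq2 adjusted p = 0.00884). Its paralog *IMPDH2* fell in SF (35.1 ± 10.4 TPM in SF and 87.8 ± 33.4 TPM in PF, log2 fold change -1.19 ± 0.38, DESeq2 adjusted p = 0.014), a call lost in the fit of all 7 libraries (DESeq2 adjusted p = 0.0522). The log2 ratio of *NPPC* to *NPR2*, with 0.1 TPM added to each, was -2.51 ± 3.55 in SF and -4.68 ± 4.56 in PF. The difference of 2.17 gave p = 0.6 in an exact two-sided permutation test (adjusted over the 3 ratios tested p = 0.6), where 3 against 3 libraries cannot go below 0.1. The difference ran from 0.73 without PF replicate 2 to 4.79 without PF replicate 3, with 4.15 without SF replicate 1, 0.74 without SF replicate 3 and 0.98 without PF replicate 1, and it was 1.14 with PF replicate 4 kept and 0.91 with 1 TPM added.

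**Figure D2:**
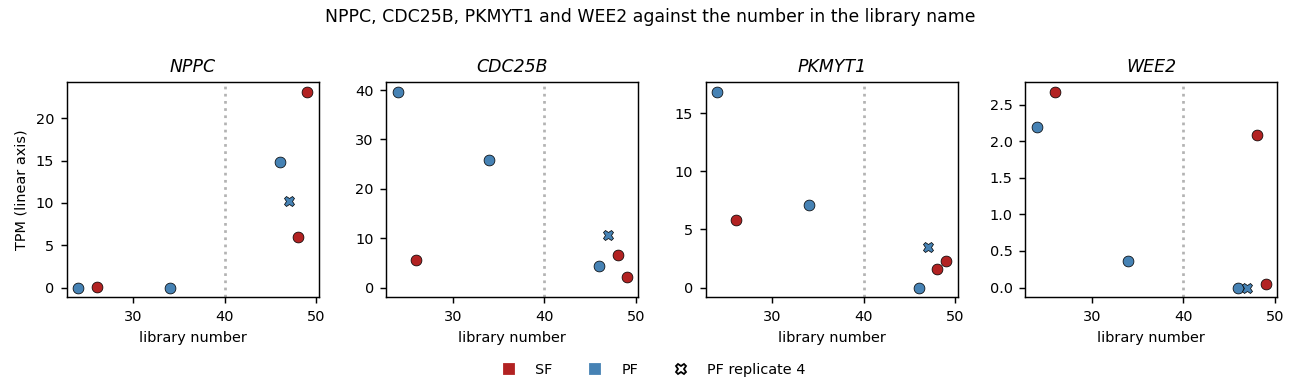
TPM (linear axis) of *NPPC*, *CDC25B*, *PKMYT1* and *WEE2* against the number in the library name, with SF in red, PF in blue and PF replicate 4 as a cross. The dotted line marks 40. *NPPC* was at or near 0 in the 3 libraries below it and between 5.97 and 23.1 TPM in the 4 above, in both stages.

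*PDE3A*, which in the mouse is the oocyte's main enzyme for breaking down cyclic AMP, was lower in SF. It had 1.06, 1.18 and 0.591 TPM in SF, from 144, 134 and 69 counts. In PF replicates 1 to 3 it had 4.80, 4.19 and 4.61 TPM, from 565, 501 and 542 counts, and in PF replicate 4 it had 0.629 TPM from 67 counts. All SF libraries lay below PF replicates 1 to 3, a lack of overlap in this direction that 18.5% of all genes tested showed, and PF replicate 4 lay among the SF libraries. The mean was 0.942 ± 0.310 TPM in SF and 4.54 ± 0.311 TPM in PF (log2 fold change -2.19 ± 0.40, DESeq2 adjusted p = 4.82e-06). With PF replicate 4 kept, *PDE3A* did not pass (-1.87 ± 0.70, DESeq2 adjusted p = 0.0873), nor did it in edgeR (adjusted p = 0.0538).

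The lower level of *PDE3A* in SF stood beside that of the oocyte markers. Of these, 16 of 22 were called lower in SF, where 11.0% of all genes tested were. For each 1000 TPM of oocyte markers, *PDE3A* had 0.574, 0.790 and 2.35 TPM in SF and 0.880, 0.831, 1.78 and 1.25 TPM in PF replicates 1 to 4, and the groups overlapped. SF replicates 1 and 2 lay below every PF library. The overlap came from SF replicate 3 alone, whose oocyte markers summed to only 252 TPM. *ZP3* made the largest part of every oocyte sum (77.6 to 933 TPM in SF and 157 to 1810 TPM in PF). It did not pass (log2 fold change -1.37 ± 0.72, DESeq2 adjusted p = 0.169). Scaled to the oocyte markers alone, where the median of all genes shifted to 2.59, the log2 fold change of *PDE3A* was 0.10 (DESeq2 adjusted p = 0.927). The share of oocyte RNA and the level of *PDE3A* per oocyte cannot be told apart in these pools. Within the libraries numbered below 40 the difference in mean log2(TPM + 0.1) was -1.99, and within those above 40 it was -2.32 without PF replicate 4 and -0.98 with it.

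*PDE5A*, which breaks down cyclic GMP, varied more within PF than between the stages. It had 3.19, 1.96 and 0.742 TPM in SF, against 4.60, 7.57 and 0.0591 TPM in PF replicates 1 to 3 and 26.8 TPM in PF replicate 4. PF replicate 3, with 6 counts, lay below every SF library and PF replicate 4, with 1881 counts, above all others. The difference was -0.91 ± 1.13 (DESeq2 adjusted p = 0.627), with a 95% interval from -3.12 to 1.31. The high value of PF replicate 4 stood beside its high stromal and smooth muscle marker sums, and their part in it was not tested. The genes closest to *PDE5A* were *RAB32*, *TMEM61* and *CTXN1* (0.409, 0.409 and 0.477), which also peaked in PF replicate 4. The log2 ratio of *PDE3A* to *PDE5A* was -0.83 ± 0.62 in SF and 1.37 ± 3.08 in PF (difference -2.20, exact two-sided permutation p = 0.3, adjusted over the 3 ratios p = 0.45). The difference was -0.44 without PF replicate 3 and -3.30 without PF replicate 2, -0.55 with PF replicate 4 kept and -1.11 with 1 TPM added.

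Of the other 17 phosphodiesterase genes 16 were tested, 5 were lower in SF and none higher, where 11.0% of all genes tested were called lower and 8.14% higher, with a median log2 fold change of -0.73 against 0.02 for all genes. One of the 5, *PDE6D*, encodes a protein that binds prenyl groups and does not break down cyclic nucleotides. *PDE4A*, a cyclic AMP phosphodiesterase, fell in SF (2.28 ± 0.798 TPM in SF and 13.0 ± 6.38 TPM in PF, log2 fold change -2.0 ± 0.46, DESeq2 adjusted p = 0.000455, or 9.74e-05 with all 7 libraries). *PDE1C*, which calcium and calmodulin activate, also fell with or without that library (log2 fold change -3.64 ± 1.01, DESeq2 adjusted p = 0.00403, or 0.00077 with it). *PDE7A*, specific for cyclic AMP, and *PDE9A*, specific for cyclic GMP, fell by 1.79 and 1.44 on the log2 scale (DESeq2 adjusted p = 0.00997 and 0.0194), and neither call held in the fit of all 7 libraries (DESeq2 adjusted p = 0.33 and 0.0672).

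*GPR3*, the orphan receptor that keeps adenylyl cyclase active in mouse oocytes, was found in some libraries of each stage. It had 0, 3.20 and 4.40 TPM in SF, against 0.0337, 2.21 and 0 TPM in PF replicates 1 to 3 and 1.64 TPM in PF replicate 4. The groups overlapped, and the 3 counts that a 0 allows would be 0.087 TPM in SF replicate 1 and 0.101 TPM in PF replicate 3. The difference was 1.95 ± 2.32 (DESeq2 adjusted p = 0.610), with a 95% interval from -2.60 to 6.50. Without PF replicate 2, the only library of PF replicates 1 to 3 above 1 count, DESeq2 called it higher in SF (adjusted p = 0.0421). A related receptor, *GPR12*, which serves the same role in the rat oocyte, was singled out after its values were seen. It was found in every library, with 6.21, 3.08 and 1.49 TPM in SF, against 16.4, 7.97 and 10.1 TPM in PF replicates 1 to 3 and 1.54 TPM in PF replicate 4 (log2 fold change -1.56 ± 0.64, DESeq2 adjusted p = 0.0672). The third receptor of this type, *GPR6*, was at 0 in every library. Of 6 tested genes among *GPR6*, *GPR12* and the G proteins listed with them, 1 passed, where 19.1% of all genes tested did. This was *GNAI2*, the alpha subunit of an inhibitory G protein, which rose in SF (107 ± 24.3 TPM in SF and 62.2 ± 5.85 TPM in PF, log2 fold change 0.89 ± 0.28, DESeq2 adjusted p = 0.0113), but not with PF replicate 4 kept, where it had 128 TPM (DESeq2 adjusted p = 0.61). Against PF replicates 1 to 3, *GNAS*, of the stimulatory G protein, was higher in SF without overlap, and *GNAI1* and *GNAL* were lower. None of these passed (DESeq2 adjusted p = 0.0622, 0.182 and 0.196).

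*ADCY9*, an adenylyl cyclase, was the only gene of the set called higher in SF. It had 18.6, 24.6 and 19.6 TPM in SF, from 2783, 3373 and 2554 counts. In PF replicates 1 to 4 it had 8.82, 5.87, 7.48 and 6.98 TPM, from 1582, 863, 855 and 713 counts. Every SF library lay above every PF library, PF replicate 4 included, where 14.3% of the genes tested were higher without overlap with PF replicates 1 to 3. The mean was 20.9 ± 3.21 TPM in SF and 7.39 ± 1.48 TPM in PF (log2 fold change 1.49 ± 0.33, DESeq2 adjusted p = 0.000291). The call held with PF replicate 4 kept (1.53 ± 0.32, DESeq2 adjusted p = 0.0002), where 5.82% of genes were called, and when any other library was left out. It missed the threshold in edgeR (adjusted p = 0.0525) and in limma on log2(TPM + 1) (adjusted p = 0.0599). The difference in mean log2(TPM + 0.1) was 1.36 below library number 40, and above 40 it was 1.54 without and 1.59 with PF replicate 4.

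The higher level of *ADCY9* in SF stood beside that of the summed granulosa markers. Of the 17 markers tested, 10 were called higher in SF and none lower, where 8.14% of all genes tested were called higher. For each 1000 TPM of granulosa markers *ADCY9* had 2.43, 3.31 and 2.48 TPM in SF and 2.69, 2.66, 3.12 and 2.26 TPM in PF replicates 1 to 4. The groups overlapped on this scale. *GSTA1* made the largest part of every granulosa sum (3930 to 5140 TPM in SF and 913 to 1600 TPM in PF). *FOXL2* did not pass (log2 fold change 0.74 ± 0.42, DESeq2 adjusted p = 0.212). *WT1* was lower in SF without overlap with PF replicates 1 to 3 (-1.74 ± 0.69, DESeq2 adjusted p = 0.0585). The share of granulosa RNA and the level of *ADCY9* per cell cannot be told apart. The genes closest to its pattern were *FYTTD1*, *SH3D19* and *FAM114A1* (0.125, 0.139 and 0.171).

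**Figure D3:**
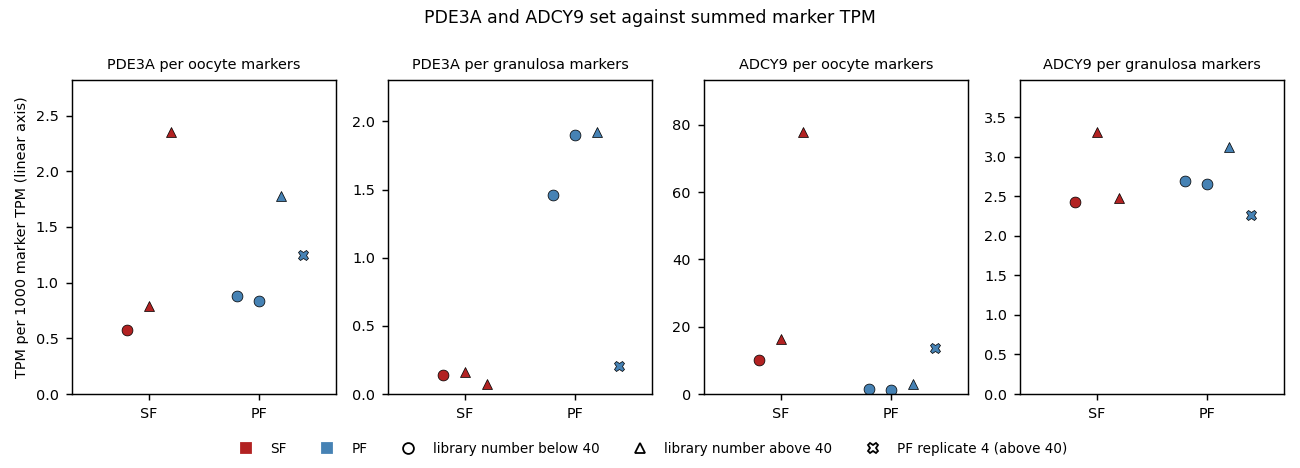
*PDE3A* and *ADCY9* in TPM per 1000 TPM of oocyte or granulosa markers (linear axes from 0), with SF in red on the left and PF in blue on the right. The groups overlap for *PDE3A* over oocyte markers (0.574 to 2.35 in SF), through SF replicate 3 alone, and for *ADCY9* over granulosa markers (2.43 to 3.31 in SF). *ZP3* made the largest part of every oocyte sum and *GSTA1* of every granulosa sum.

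*ADCY9* also made up more of the adenylyl cyclase RNA in SF. It held 68.3%, 66.2% and 81.5% of the summed TPM of 10 adenylyl cyclase genes in SF, and 33.1%, 16.6%, 40% and 32.2% in PF replicates 1 to 4, while the sum itself overlapped (24.0 to 37.1 TPM in SF and 18.7 to 35.4 TPM in PF replicates 1 to 3). *ADCY3*, a cyclase found in rodent oocytes, was near 1 TPM in both stages, with 2.10, 0.473 and 0.758 TPM in SF, against 1.37, 0.775, 0.362 and 1.06 TPM in PF replicates 1 to 4. The groups overlapped (0.73 ± 0.93, DESeq2 adjusted p = 0.637) and the sign turned without SF replicate 1 (-0.08). Its reads were assigned to different models: to XM_005213019.4 alone in SF and PF replicate 4, and to NM_001206084.1 alone in PF replicates 1 to 3. These were 27 to 142 counts in SF and 19 to 73 in PF replicates 1 to 3, and the assignment was an estimate. Of the other 8 cyclases, 5 were tested, 2 were lower in SF and none higher, where 11.0% of all genes tested were called lower and 8.14% higher. Their median log2 fold change was -2.30, against 0.02 for all genes. *ADCY7* had 0.985 ± 0.780 TPM in SF and 5.13 ± 0.865 TPM in PF (log2 fold change -2.30 ± 0.62, DESeq2 adjusted p = 0.00307), but 0.108 TPM in PF replicate 4, with which the call was lost (DESeq2 adjusted p = 0.284). *ADCY1*, activated by calcium and calmodulin, had 0 to 1 counts in SF and 9 to 79 in PF replicates 1 to 3 (DESeq2 adjusted p = 0.00717, or 0.0462 with PF replicate 4), and without PF replicate 2 it did not pass (DESeq2 adjusted p = 0.12).

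**Figure D4:**
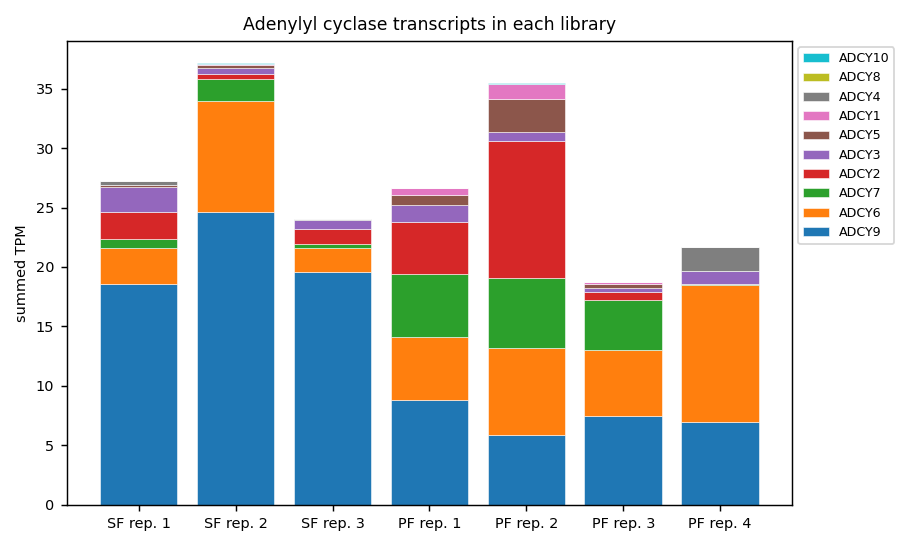
Summed TPM of the 10 adenylyl cyclase genes in each library, stacked by gene, with SF on the left and PF on the right. *ADCY9* (blue, at the base) held 66.2% to 81.5% of the bar in SF and 16.6% to 40% in the 4 PF libraries.

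Downstream, *PRKAR2B*, a regulatory subunit that holds protein kinase A inactive until cyclic AMP binds, rose in SF. It had 303, 389 and 367 TPM in SF, against 131, 124, 110 and 104 TPM in PF replicates 1 to 4, with no overlap (log2 fold change 1.65 ± 0.24, DESeq2 adjusted p = 4.83e-09, or 2.16e-11 with PF replicate 4). It was 1 of 3 genes that rose among 13 tested genes of protein kinase A, its inhibitors and its anchors, and none fell, where 8.14% of all genes tested were called higher and 11.0% lower. Another was *PRKACA*, a catalytic subunit (4.47 ± 2.41 TPM in SF and 0.645 ± 0.628 TPM in PF, DESeq2 adjusted p = 0.0127). The last was *PKIA*, which inhibits catalytic subunits (119 ± 6.85 TPM in SF and 63.1 ± 11.5 TPM in PF, DESeq2 adjusted p = 0.0121). Both calls were lost in the fit of all 7 libraries (DESeq2 adjusted p = 0.202 and 0.401). *PRKG1*, a kinase that cyclic GMP activates, fell in SF. It had 2.19, 2.38 and 1.95 TPM in SF, against 14.0, 7.10, 10.2 and 3.56 TPM in PF replicates 1 to 4, again with no overlap (log2 fold change -2.17 ± 0.41, DESeq2 adjusted p = 7.5e-06, or 0.00465 with PF replicate 4).

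*CDC25B*, the phosphatase that activates CDK1 and is needed for mouse oocytes to resume meiosis, was lower in SF by DESeq2, but its groups overlapped. It had 5.50, 6.64 and 2.23 TPM in SF, from 283, 265 and 97 counts. In PF replicates 1 to 4 it had 39.7, 25.9, 4.35 and 10.6 TPM, from 1753, 1155, 191 and 412 counts. The PF libraries numbered below 40 lay far above the rest, and PF replicate 3 lay inside the SF range. The mean was 4.79 ± 2.29 TPM in SF and 23.3 ± 17.8 TPM in PF (log2 fold change -2.16 ± 0.73, DESeq2 adjusted p = 0.023). The call was lost in all 7 libraries (DESeq2 adjusted p = 0.0722), with the library number as a factor (-1.28, DESeq2 adjusted p = 0.174), and without SF replicate 2 or 3 or PF replicate 1 or 2 (DESeq2 adjusted p = 0.0588, 0.101, 0.19 and 0.109). The difference in mean log2(TPM + 0.1) was -2.52 below library number 40, and above 40 it was -0.17 without and -0.80 with PF replicate 4. For each 1000 TPM of oocyte markers *CDC25B* had 2.99, 4.44 and 8.86 TPM in SF and 7.28, 5.13, 1.69 and 21.0 TPM in PF replicates 1 to 4, and the groups overlapped. The genes closest to *CDC25B* were *SGCD*, *SLC5A6* and *HMGXB3* (0.254, 0.311 and 0.319).

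*WEE2*, the oocyte form of the kinase that inhibits CDK1, was low and uneven in both stages. It had 2.67, 2.08 and 0.0457 TPM in SF, against 2.20, 0.359 and 0 TPM in PF replicates 1 to 3 and 0 TPM in PF replicate 4. The groups overlapped (1.10 ± 1.81, DESeq2 adjusted p = 0.727), and 3 counts would be 0.068 and 0.0751 TPM in the PF libraries at 0. The 95% interval ran from -2.44 to 4.64. The difference was 3.21 without PF replicate 1, 0.72 without PF replicate 2, 0.50 without PF replicate 3, 0.45 without SF replicate 1 and 1.71 without SF replicate 3. A fit that took up the library number gave 4.03 (DESeq2 adjusted p = 0.14).

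*PKMYT1*, the membrane-bound kinase that also inhibits CDK1, was found in every SF library. It had 5.85, 1.57 and 2.29 TPM in SF, against 16.8, 7.09, 0 and 3.50 TPM in PF replicates 1 to 4. PF replicate 3, the library with no *PKMYT1* or *WEE2* counts, lay below SF and PF replicates 1 and 2 above it (-1.06 ± 1.52, DESeq2 adjusted p = 0.680). In PF replicate 3, 3 counts would be 0.104 TPM. With the library number as a factor the sign turned (2.67, DESeq2 adjusted p = 0.194). The genes closest to its pattern were *MOCS1*, *ZNF304* and *MKNK1* (0.369, 0.444 and 0.455).

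The log2 ratio of *CDC25B* to the sum of *WEE2* and *PKMYT1* was taken with 0.1 TPM added to each side. It set only these listed genes of the CDK1 switch against each other, and *CDC25A*, *CDC25C* and *WEE1* were not in it. It was -0.62, 0.85 and -0.07 in SF and 1.06, 1.79, 5.48 and 1.57 in PF replicates 1 to 4. By this ratio every SF library lay below every PF library. The mean was 0.05 ± 0.74 in SF and 2.77 ± 2.37 in PF, and the difference of -2.72 gave p = 0.1 in an exact two-sided permutation test, the smallest that 3 against 3 libraries allow (adjusted over the 3 ratios p = 0.3). With PF replicate 4 kept the exact permutation p was 0.0571, again the smallest that the 3 and 4 libraries allow. The value of PF replicate 3 rests on 0 counts of both kinases, and without it the difference was -1.37. In that library *WEE1* had 4.83 TPM from 210 counts. *WEE1* had 0, 0.755 and 0.828 TPM in SF and 0 TPM in the other PF libraries. *CDC25A* had 6.18, 8.76 and 4.1 TPM in SF and 6.78, 4.6, 0.0701 and 3.36 TPM in PF replicates 1 to 4. *CDC25C* had 0, 3.45 and 0 TPM in SF and 16.2, 3.47, 0 and 3.32 TPM in PF. A ratio over all these genes was not tested.

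**Figure D5:**
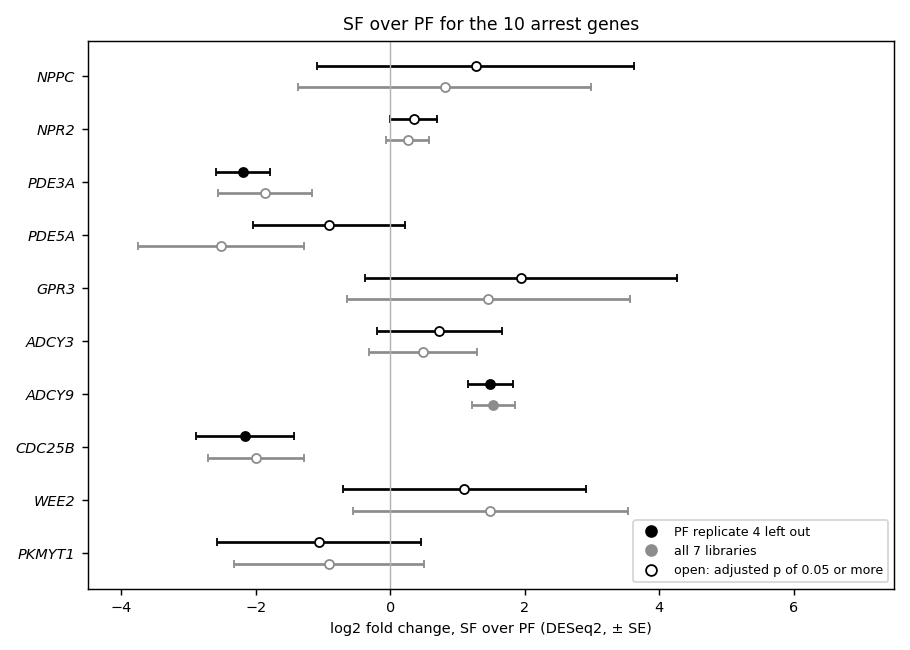
DESeq2 log2 fold change of SF over PF ± SE for the 10 genes, without PF replicate 4 (black) and with all 7 libraries (grey). Filled points had an adjusted p below 0.05. *ADCY9* passed in both fits, and *PDE3A* and *CDC25B* passed only with PF replicate 4 left out.

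*CDK1* itself did not pass (10.3 ± 1.14 TPM in SF and 19.3 ± 13.6 TPM in PF, log2 fold change -0.54 ± 0.57, DESeq2 adjusted p = 0.551), and without PF replicate 2, which had 35.0 TPM, the sign turned (0.12). Among CDK1, the cyclins and the other CDC25 and WEE genes, 8 of 9 were tested, 3 fell in SF and none rose, where 11.0% of all genes tested were called lower and 8.14% higher. Their median was -1.15, against 0.02 for all genes. These were the cyclins that activate CDK1, *CCNB2*, *CCNB1* and *CCNA2*, which fell by 2.15, 1.76 and 1.91 on the log2 scale (DESeq2 adjusted p = 0.0103, 0.0173 and 0.0181). *CCNB1* had 67.3, 75.0 and 14.6 TPM in SF and 264, 161, 140 and 65.8 TPM in PF replicates 1 to 4. None of these calls held in the fit of all 7 libraries (DESeq2 adjusted p = 0.16, 0.122 and 0.148).

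Of the activators and inhibitors of the anaphase-promoting complex, 4 of 11 fell and none rose, where 11.0% of all genes tested were called lower and 8.14% higher. *MAD2L1* and *BUB1B*, of the spindle checkpoint, fell by 1.92 and 1.85 on the log2 scale, and *CDC20*, the activator that the checkpoint holds back, and the subunit *ANAPC10* by 1.67 and 1.13 (DESeq2 adjusted p = 1.35e-05, 0.00868, 0.00319 and 0.00253). With all 7 libraries the calls of *MAD2L1* and *BUB1B* held (DESeq2 adjusted p = 0.0412 and 0.0346), and those of *CDC20* and *ANAPC10* did not (DESeq2 adjusted p = 0.0964 and 0.351). Of 15 kinases and phosphatase regulators of meiotic resumption 4 fell and none rose, against the same shares over all genes. The aurora kinases *AURKA* and *AURKC* fell by 2.12 and 2.17 on the log2 scale (DESeq2 adjusted p = 0.0007 and 0.000461), and *MOS*, which starts the oocyte's MAP kinase cascade, and *MASTL*, which restrains the phosphatase PP2A, also fell (log2 fold changes -1.76 and -3.54, DESeq2 adjusted p = 0.0382 and 0.0292). With PF replicate 4 kept only *AURKC* of these 4 passed (DESeq2 adjusted p = 0.0223).

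Of the 3 gap junction genes tested 1 passed, where 19.1% of all genes tested did, and their median log2 fold change was -0.45. *GJA1*, connexin 43 of granulosa cells, rose in SF (792 ± 304 TPM in SF and 224 ± 94.4 TPM in PF, log2 fold change 1.89 ± 0.53, DESeq2 adjusted p = 0.00416, or 0.0563 with PF replicate 4). *GJA4* and *GJC1* lay lower in SF without overlap with PF replicates 1 to 3, as did 18.5% of all genes tested. Neither passed (log2 fold changes -0.45 and -0.86, DESeq2 adjusted p = 0.245 and 0.108). Of the 5 gonadotropin and EGF-like genes tested 1 passed, against the same share. This was *FSHR*, the receptor of follicle-stimulating hormone, which rose in SF (49.3 ± 8.66 TPM in SF and 26.0 ± 5.35 TPM in PF, log2 fold change 1.06 ± 0.31, DESeq2 adjusted p = 0.00786, or 0.00779 with PF replicate 4). Over all 12 lists of pathway genes, 7 of the 91 genes tested were higher and 20 lower in SF, or 29.7% together, where 8.14% of all genes tested were called higher, 11.0% lower and 19.1% in either direction, with a median log2 fold change of -0.45 beside 0.02 for all genes. Of the 26 genes named from these lists as called, 10 were called in the same direction whichever of the 6 libraries was left out (*ADCY7*, *PDE4A*, *PRKAR2B*, *PRKG1*, *MAD2L1*, *ANAPC10*, *CDC20*, *AURKA*, *AURKC* and *GJA1*). The number was 15 without PF replicate 1, 15 without PF replicate 2 and 22 to 25 without any of the other 4. Scaled to the oocyte markers, 7 of the 26 were called in the same direction and most of the falls turned in sign, though they stayed below the shifted median of all genes (2.59). The falls stood beside the lower oocyte marker sums in SF and the rises beside the higher granulosa sums, and their part in them was not tested gene by gene.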

How the data were processed

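RNA sequencing of 7 libraries was analysed, grouped by the sample titles. According to the study, cDNA was made with SMART-Seq v4, a kit without strand information, and trimmed reads were quantified with Salmon against the ARS-UCD1.3 transcriptome. The authors deposited an estimated count, a TPM and an effective length per RefSeq transcript. Of 76123 transcripts, 50205 (66.0%) matched by accession to 23704 genes of a RefSeq table of ARS-UCD2.0, used for names alone, so no coordinates are given, and sequences were not used here. Unmatched transcripts held 9.71% to 10.73% of a library's counts and were left out, so a gene's value can be incomplete. Counts and TPM were summed per gene and counts rounded. No library pair was a duplicate.

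PF replicate 4 was left out, as in the study. SF was tested over PF with the Wald test of DESeq2 1.42.0 (R 4.3.3, Benjamini-Hochberg adjusted p below 0.05). Alternatives were edgeR 4.0.16 quasi-likelihood, limma 3.58.1 on log2(TPM + 1) or log2(TPM + 0.1) with 1 TPM in at least 3 libraries, TMM factors, oocyte marker factors, a length offset, a filter of 10 counts in 3 libraries, all 7 libraries, a replicate block, the library number as a factor, adjusted p below 0.01, 1 TPM added in the ratios, and each library left out. edgeR with all 7 libraries, and the alternatives for pathway genes, were added after the data were seen. In the *CDC25B* ratio 0.1 TPM was added, which had not been planned, because both kinases were at 0 in PF replicate 3. Wald intervals are 95%. Python 3.11.15, numpy 2.4.6, pandas 2.3.3, scipy 1.17.1 and matplotlib 3.10.9 were used.

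The 10 genes and all lists were chosen with earlier results of these data known. All 10 were named, and of each pathway list up to 4 called genes by smallest adjusted p, with *CDK1* added. Alike genes were the 3 with the smallest difference among genes of mean 5 TPM or more, for members of that mean. The study calls its pools biological replicates, but the sources used here do not give the animals of each library. The p-values set a group difference only against the spread among these pools, and that spread may be technical. Since amplification was not tracked by molecular identifiers, floors of 3 counts cover counting error only.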

Additional observations from a re-analysis of the deposited data

Results flagged for a closer look

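Among the 4 PF libraries, *PDE3A* was far lower in PF replicate 4 (0.629 TPM) than in the others (4.19 to 4.80 TPM), a gap larger than Dixon's 95% limit for 4 values. *WEE2* was far higher in PF replicate 1 (2.20 TPM) than in the other PF libraries (0 to 0.359 TPM) by the same measure. Chance flags about 1 in 20 groups, and all 10 genes were examined. *PDE5A* had 26.8 TPM in PF replicate 4, which the tests did not use, above its level in the other 6 libraries (0.0591 to 7.57 TPM).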

How the results depend on the processing

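The 2876 genes called became 0 in edgeR with 6 or 7 libraries, 792 and 2 in limma on log2(TPM + 1) and log2(TPM + 0.1), 858 with PF replicate 4 kept, 1588 at an adjusted p below 0.01, 8893 with oocyte marker factors and 1887 to 3947 with a library left out. The 3 arrest genes called became 0 in edgeR with 6 or 7 libraries and 0 in both limma fits, 1 with PF replicate 4 kept, and 2 to 4 with a library left out. With oocyte marker factors 3 were called, but *NPR2* and *ADCY3* took the place of *PDE3A* and *CDC25B* beside *ADCY9*. Their log2 fold changes were 3.10, 3.25 and 4.09 (DESeq2 adjusted p = 0.00359, 0.00757 and 0.000148). Of the calls over all genes, 42.6% were higher in SF, against 29.4% in limma on log2(TPM + 1) and 99.6% with oocyte marker factors. With those factors the median of all genes was 2.59 and the sign turned for *PDE3A* (0.10), *PDE5A* (1.63), *CDC25B* (0.22), *PKMYT1* (1.61), *IMPDH2* (1.26), *PDE4A* (0.50), *PDE7A* (0.77), *PDE9A* (0.99), *PRKG1* (0.30), *CCNB1* (0.25), *CCNA2* (0.03), *MAD2L1* (0.51), *ANAPC10* (1.29), *CDC20* (0.66), *BUB1B* (0.39), *AURKC* (0.29), *MOS* (0.13) and *CDK1* (2.23), all still below that median. Other sign changes were *PDE5A* with the library number as a factor (1.37), *PKMYT1* with it (2.67) and in limma on log2(TPM + 0.1) (0.32), and, with a library left out, *NPPC* (-0.62 without SF replicate 3, up to 9.69), *ADCY3* (-0.08 without SF replicate 1, up to 1.15) and *CDK1* (0.12 without PF replicate 2, down to -0.84). The causes were not tested.

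The sources used here do not say whether SF and PF replicates of the same number were paired. Deviations from the group means correlated at 0.26, -0.04 and 0.40 in same-numbered libraries and at -0.43 to 0.27 in the others. These values cannot settle it, since the 3 deviations of a group sum to 0. The replicate block called 4077 genes and turned *PDE5A* (0.07), and the count of arrest genes called stayed at 3. The 3 ratios kept their direction in every alternative, and none reached p below 0.05, which 3 against 3 libraries cannot. Of the 26 pathway genes named as called, 10 were called in the same direction with PF replicate 4 kept, 7 in limma on log2(TPM + 1) and 0 in edgeR. Values of *NPPC*, *GPR3*, *WEE2* and *PKMYT1* rest on at most 3 counts in at least 1 library each.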
